A study of Mus musculus with 12 samples.

Results

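The genes of the proteasome and of its interferon-inducible form, the immunoproteasome, were examined in whole kidney tissue of 12 mice. Members were the genes whose symbol is Psm, a letter from a to g and a number, with at least 1 FPKM (mapped fragments of a gene relative to transcript length and library size) in at least 4 mice. This gave 46 genes of the 13148 that passed the same filter. The pattern matched 49 rows of the table, and 3 of them did not pass. Psma8, a testis form of an α subunit, was listed at 0.025 to 0.477 FPKM, Psmb11, a thymus form of a catalytic subunit, at 0.0106 FPKM or less, and a second row named Psmd5 near 0. Of the 46 members, 5 are inducible by interferon (Psmb8, Psmb9, Psmb10, Psme1 and Psme2) and the other 41 are called constitutive here.

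The study asked how iron dextran acts on the kidney in chronic kidney disease (CKD). The 4 control mice ate a diet without adenine and received PBS i.p. each week. The 4 CKD mice ate 0.2% adenine, which injures the tubules, from 8 to 16 weeks of age, with the same PBS injections. The 4 CKD+Fe mice ate the adenine diet and received iron dextran i.p. each week at 0.5 g/kg. All were C57BL/6 mice with no engineered allele in these groups, and each mouse gave 1 library. Mice are numbered within their group in the order of the labels.

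The proteasome degrades proteins that carry ubiquitin. Its barrel-shaped core has outer rings of α subunits, which gate the entry, and inner rings of β subunits, which hold the catalytic sites. A regulatory cap of ATPases and other subunits binds, unfolds and feeds the substrates. Interferon induces Psmb8, Psmb9 and Psmb10, which take the places of Psmb5, Psmb6 and Psmb7 in newly built cores and change the peptides that are cut, many of them for display on MHC class I. Interferon also induces Psme1 and Psme2, which together form the activator PA28αβ. Leukocytes hold much immunoproteasome, and kidney tubule cells hold mainly the constitutive form.

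Some facts of the whole tissue bear on every value below. The FPKM of all genes summed to 503438 to 707843 per mouse, and the depth in reads is unknown. The values of most genes were higher in CKD than in control, and the median of the log2 fold changes of all 13148 genes was 0.50. Dividing each mouse by a median-of-ratios size factor brought that median to 0.012, and values after this rescaling are given beside those as deposited for the members named. Control mouse 3, CKD mouse 3 and CKD+Fe mouse 1 stood apart from their groups, with 596, 806 and 442 genes at least 2-fold away from the other mice of the group. These mice were the highest of their group for 27, 35 and 30 of the 46 members (58.7, 76.1 and 65.2%), against 43.0, 32.6 and 43.0% of all genes. The summed FPKM of 10 leukocyte markers was 54.3 to 131 in control, 1145 to 2256 in CKD and 935 to 2384 in CKD+Fe mice. In the mice on adenine most of this sum was the macrophage gene Lyz2. Lyz2 was listed at 24.8 to 85.2 FPKM in control, 952 to 1915 in CKD and 745 to 1969 in CKD+Fe mice. The sum of 10 proximal tubule markers was 4479 to 6564, 1024 to 1949 and 1094 to 2481 in the same order, so the labelled tissue was present in every group with fewer tubule transcripts under adenine. In whole tissue, fewer cells of a type and less RNA per cell cannot be told apart. The part of cell composition in the results below was not tested.

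The inducible genes lie in pairs. On chromosome 17 of GRCm38, Psmb9 (34181988 to 34187764, minus strand) overlaps the start of Tap1 (34187553 to 34197225, plus strand), a peptide transporter subunit, and Psmb8 (34197721 to 34201454, plus strand) follows. On chromosome 14, Psme1 (55578123 to 55581529, plus strand) touches Emc9 on the other strand, and Psme2 (55587441 to 55591113, minus strand) lies just beyond. Psmb10 is alone on chromosome 8 (105935735 to 105938444, minus strand). The libraries were stranded, but whether the FPKM used the strand is not given in the sources used here, so reads in these overlaps cannot be assigned with certainty. Reads of Psme2 may also be shared with Psme2b, a close copy.

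The letters of known response elements were searched in the RefSeq promoter windows of GRCm38.p6, 250 bases before to 50 after each start. Of the 46 members, 39 had a window. The stretches of 30 bases below are shown for the inducible genes that held a match and for some constitutive genes that held one, 5′ to 3′ on the strand of the gene, with the match in capitals. The first is the core of an interferon-stimulated element (GAAANNGAA, read on the opposite strand) at chr14:55578493-55578522 on the plus strand, in the first exon of Psme1.
Psme1: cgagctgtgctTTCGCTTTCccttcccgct
Psmb9 held only a CCAAT box, on the opposite strand, at chr17:34187322-34187351 on the minus strand.
Psmb9: cgcgcagccgctgATTGGaaagccgagccc
Constitutive genes also held the core of the interferon-stimulated element, here Psmb4 at chr3:94886943-94886972 (minus strand) and Psmg4 at chr13:34162968-34162997 (plus strand).
Psmb4: caaaggaccacTTCCGTTTCcggtgacgct
Psmg4: cgcgcgcatctGAAAGTGAAagagcgttcc
The core of the antioxidant response element (TGACNNNGC), bound by the Nrf1 and Nrf2 factors, was held by Psmb5 at chr14:54618024-54618053 (minus strand) and Psmb6 at chr11:70525337-70525366 (plus strand), both upstream of the gene.
Psmb5: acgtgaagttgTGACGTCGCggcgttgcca
Psmb6: actaaagagagTGACGGAGCgctttacgac

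GAAANNGAA was present in 1 of the 5 inducible genes (Psme1), in 6 of 34 constitutive genes and in 8.56% of all 32851 windows on either strand. TGACNNNGC was present in 0 of the 5, in 6 of the 34 and in 12.4% of windows. CCAAT was present in 1 of the 5 (Psmb9), in 12 of the 34 and in 37.4% of windows. The 5 genes that moved together below thus shared none of these letter patterns within these windows. The windows of Psmb8 (34197945 to 34198244), Psmb9 (34187281 to 34187580) and Psme1 (55578244 to 55578543) lay wholly within the gene bounds given above. For these genes the sequence upstream of those bounds was not searched, so the absence of a match says nothing about it. A match is only a description of the letters.

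The comparison of CKD with control asked how the adenine diet changed the members. All 5 inducible genes were higher in CKD, and they were the 5 largest log2 fold changes among the 46 members. Most constitutive genes lay near or below their control level while most of the transcriptome was higher. By limma with Benjamini-Hochberg adjustment over all genes, 7 of the 46 members were higher, against 54.6% of all genes tested, and 8 were lower, against 13.3%. The median log2 fold change was 0.98 over the 5 inducible genes, −0.14 over the 41 constitutive genes and 0.50 over all genes. After median-of-ratios rescaling, 1 member was higher, against 28.8% of all genes, and 36 were lower, against 29.3%. All 41 constitutive genes then had a negative value and all 5 inducible genes a positive one. Under quantile normalization, where the median of all genes was −0.029, 7 members were higher and 9 lower. Of all 13148 genes, 3060 were then higher and 3363 lower. The median of the members was −0.006 there, and 23 of the 46 were positive. The fall of nearly all constitutive genes thus depended on the scaling used.

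Psmb8 encodes β5i, the inducible counterpart of the chymotrypsin-like site. It was listed at 11.6, 13.9, 18.1 and 15.1 FPKM in control mice 1 to 4, at 37.1, 58.6, 65.5 and 32.6 in CKD mice and at 57.8, 37.0, 38.5 and 30.5 in CKD+Fe mice. Every mouse on the adenine diet was above every control mouse. The means were 14.7 ± 2.69 FPKM in control and 48.4 ± 16.1 in CKD (SD, n = 4 each). The log2 fold change of FPKM + 1 was 1.61 (SE 0.24, limma adjusted p = 5.85e-05). It was 1.06 after rescaling (adjusted p = 0.00155), the only one of the 5 that kept its call there.

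Psmb10 encodes β2i, the inducible form of the trypsin-like site. Its FPKM were 20.1, 28.6, 42.0 and 24.7 in control mice, 44.5, 90.4, 98.9 and 39.2 in CKD mice and 78.2, 63.6, 54.2 and 48.8 in CKD+Fe mice. CKD mouse 4 was below control mouse 3, and the other CKD mice were above all control mice. The log2 fold change in CKD was 1.15 (SE 0.30, limma adjusted p = 0.00384). It was 0.59 after rescaling (adjusted p = 0.104).

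Psmb9 encodes β1i and was the lowest of the 5 in FPKM, a scale per transcript length. It was listed at 4.35, 6.74, 13.1 and 8.80 FPKM in control mice, at 14.6, 19.7, 21.8 and 10.7 in CKD mice and at 17.7, 16.6, 13.4 and 9.93 in CKD+Fe mice. Control mouse 3 lay within the range of the CKD mice. The log2 fold change in CKD was 0.98 (SE 0.29, limma adjusted p = 0.00802). It was 0.46 after rescaling (adjusted p = 0.187).

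The PA28 genes had the smallest log2 fold changes of the 5 in CKD, with Psme1 (0.89, SE 0.29) close to Psmb9 (0.98, SE 0.29). Psme1, which encodes PA28α, was listed at 57.4, 74.3, 146 and 54.4 FPKM in control mice, at 112, 196, 184 and 101 in CKD mice and at 179, 144, 132 and 144 in CKD+Fe mice. Control mouse 3 overlapped the CKD range here too. The log2 fold change of Psme1 in CKD was 0.89 (SE 0.29, limma adjusted p = 0.0153), and 0.31 after rescaling (adjusted p = 0.359). The call of Psme1 was lost in 3 of the 12 fits that left out 1 mouse, with an adjusted p of at most 0.0534. Psme2, which encodes PA28β, was listed at 45.9, 47.8, 73.5 and 46.7 FPKM in control, 81.1, 102, 112 and 72.9 in CKD and 101, 85.1, 82.8 and 73.9 in CKD+Fe mice. Only control mouse 3 reached the lowest CKD mouse. For Psme2 the log2 fold change in CKD was 0.78 (SE 0.18, limma adjusted p = 0.00178), and 0.21 after rescaling (adjusted p = 0.323). Without control mouse 3, CKD mouse 3 and CKD+Fe mouse 1, all 5 genes passed the test as deposited. Their log2 fold changes then ran from 0.84 (Psme2) to 1.55 (Psmb8). Most other genes passed in that fit too, with 7811 of the 13148 tested called higher and the median gene at 0.54.

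**Figure D1:**
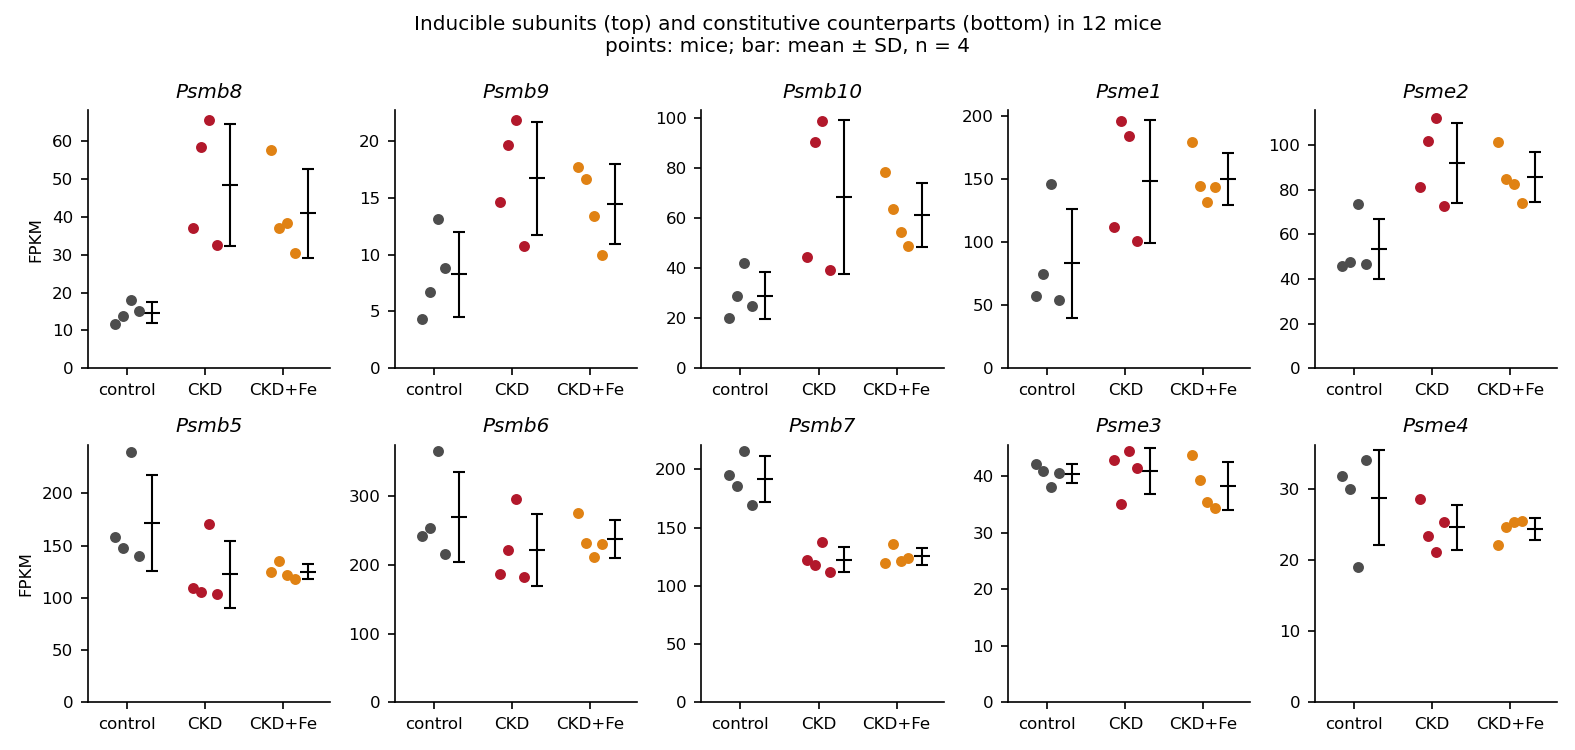
FPKM of the 5 inducible subunit genes (top row) and of 5 constitutive counterparts or relatives (bottom row) in each of the 12 mice, with the group mean and SD (n = 4) as a bar. Every CKD and CKD+Fe mouse is above every control mouse for Psmb8, and every one is below every control mouse for Psmb7.

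The constitutive catalytic genes had negative values as deposited, and 2 of the 3 passed the test, against 13.3% of all genes lower. After rescaling all 3 were lower, against 29.3% of all genes. Psmb7, the trypsin-like site that Psmb10 replaces, had the largest fall of the 46 members. It was listed at 195, 186, 216 and 170 FPKM in control mice, 122, 118, 138 and 112 in CKD mice and 120, 136, 122 and 124 in CKD+Fe mice. No mouse on adenine reached a control mouse. Psmb7 thus had a log2 fold change in CKD of −0.64 (SE 0.12, limma adjusted p = 0.000323), and −1.22 after rescaling. Psmb5, the chymotrypsin-like site, was listed at 158, 148, 239 and 140 FPKM in control, 110, 106, 171 and 103 in CKD and 125, 135, 122 and 118 in CKD+Fe mice. CKD mouse 3 was above 3 of the control mice, and the other CKD mice were below all of them. Its log2 fold change in CKD was −0.48 (SE 0.19, limma adjusted p = 0.0373), a call kept in 7 of the 12 fits that left out 1 mouse and lost under quantile normalization (−0.19, adjusted p = 0.307). After rescaling the value of Psmb5 was −1.05 (adjusted p = 0.000551). Psmb6, the caspase-like site that Psmb9 replaces, was listed at 243, 255, 366 and 216 FPKM in control, 187, 222, 297 and 183 in CKD and 276, 233, 211 and 231 in CKD+Fe mice. These ranges overlapped, and its log2 fold change of −0.28 did not pass the test as deposited (SE 0.19, limma adjusted p = 0.206). After rescaling it was −0.85 (adjusted p = 0.00188), and under quantile normalization it turned to 0.15 (adjusted p = 0.367).

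Because each inducible catalytic subunit competes with 1 constitutive subunit for the same site, the pair was also compared within each mouse, which does not depend on the scaling between mice. The share is the inducible gene's FPKM as a percentage of the sum of the pair. It is a share of transcript per length and not of protein. The share of Psmb8 in Psmb8 plus Psmb5 was 6.85, 8.59, 7.03 and 9.72% in control mice, 25.2, 35.7, 27.7 and 24.0% in CKD mice and 31.6, 21.5, 24.0 and 20.5% in CKD+Fe mice. No CKD mouse was near the control range. The mean rose from 8.05 ± 1.36% to 28.1 ± 5.25% (SD, n = 4), a difference of 20.1 percentage points (exact two-sided permutation p = 0.0286, 0.0429 after Benjamini-Hochberg adjustment over 9 share comparisons).

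The share of Psmb10 in Psmb10 plus Psmb7 was 9.35, 13.3, 16.3 and 12.7% in control mice, 26.7, 43.3, 41.8 and 25.9% in CKD mice and 39.5, 31.8, 30.8 and 28.2% in CKD+Fe mice. The CKD mice fell into a lower and a higher pair, both above the control range. The mean rose from 12.9 ± 2.84% to 34.4 ± 9.40%, by 21.5 points (exact permutation p = 0.0286, adjusted 0.0429, n = 4 each). The share of Psmb9 in Psmb9 plus Psmb6 was 1.76, 2.58, 3.46 and 3.92% in control, 7.24, 8.13, 6.85 and 5.55% in CKD and 6.04, 6.67, 5.96 and 4.13% in CKD+Fe mice. The groups on adenine did not reach down to the control mice, although the genes Psmb9 and Psmb6 each overlapped between control and CKD. The mean rose from 2.93 ± 0.957% to 6.94 ± 1.07%, by 4.02 points (exact permutation p = 0.0286, adjusted 0.0429, n = 4 each). That p is the smallest that 70 arrangements of 4 mice against 4 can give. Without the 3 mice that stood apart, the differences were 19.9, 20.2 and 4.22 points for Psmb8, Psmb10 and Psmb9.

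**Figure D2:**
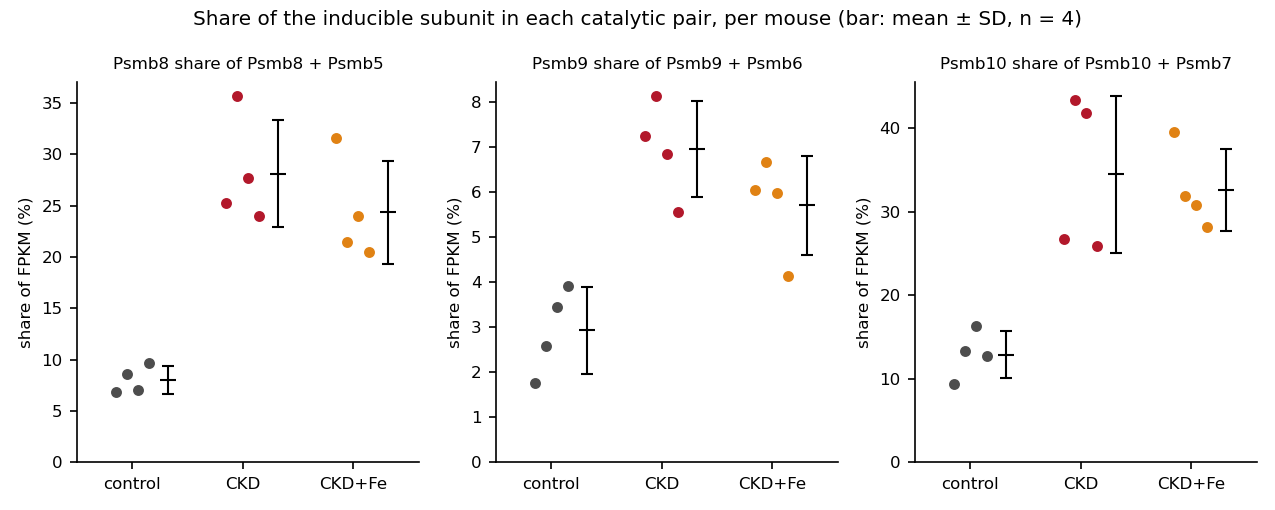
Share (%) of the inducible subunit in the summed FPKM of each catalytic pair, 1 point per mouse, with the mean and SD (n = 4) as a bar. In all 3 pairs every CKD and CKD+Fe mouse lies above every control mouse.

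Psme3 encodes PA28γ, the nuclear relative of PA28αβ, and Psme4 encodes the activator PA200. Psme3 was listed at 42.1, 40.9, 38.1 and 40.5 FPKM in control, 42.7, 35.1, 44.4 and 41.4 in CKD and 43.8, 39.2, 35.4 and 34.4 in CKD+Fe mice. These groups lay on top of each other, with a log2 fold change in CKD of 0.01 (SE 0.12, limma adjusted p = 0.923) as deposited and −0.55 (adjusted p = 0.00213) after rescaling. The ratio of Psme2 to Psme3 was 1.34 ± 0.398 in control and 2.27 ± 0.536 in CKD mice, and 2.24 ± 0.0981 with iron (SD, n = 4). Control mouse 3, at 1.93, was above CKD mice 1 and 4 (1.90 and 1.76). The ratio of Psme1 to Psme3 was 2.09 ± 1.19, 3.69 ± 1.47 and 3.92 ± 0.254 in the same order, and control overlapped CKD there too. The ratio of Psme1 to Psme2, the partners of the PA28αβ ring, was 1.49 ± 0.372, 1.58 ± 0.256 and 1.75 ± 0.148 in the same order, and its ranges overlapped. Psme4 was listed at 31.8, 29.96, 19.02 and 34.0 FPKM in control, 28.5, 23.3, 21.1 and 25.3 in CKD and 22.1, 24.7, 25.3 and 25.4 in CKD+Fe mice. Control mouse 3 was the lowest of all mice for Psme4, and the log2 fold change in CKD was −0.19 (SE 0.17, limma adjusted p = 0.318). It was −0.37 without that mouse (limma adjusted p = 0.0176) and −0.75 after rescaling (adjusted p = 0.00245).

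The core rings outside the catalytic sites changed little as deposited. Of the 7 α ring genes, 1 was lower in CKD and none higher, and of the 4 non-catalytic β genes none passed the test, against 54.6% of all genes higher and 13.3% lower. After rescaling all 7 and all 4 were lower, against 29.3% of all genes. Psma4, the α3 subunit, was listed at 163, 176, 182 and 158 FPKM in control, 131, 124, 128 and 118 in CKD and 144, 145, 145 and 140 in CKD+Fe mice. The 3 groups did not overlap, with CKD lowest and CKD+Fe between. For Psma4 the log2 fold change in CKD was −0.43 (SE 0.10, limma adjusted p = 0.00215). It was −1.01 after rescaling, and under quantile normalization −0.11, which did not pass the test (adjusted p = 0.371). Psma5, the α5 subunit, was at the other end of the ring, with 40.9 to 44.4 FPKM in control, 43.1 to 56.8 in CKD and 43.2 to 48.7 in CKD+Fe mice. A log2 fold change of 0.22 for Psma5 did not pass the test (SE 0.12, limma adjusted p = 0.121) and became −0.35 after rescaling (adjusted p = 0.0328). Among the non-catalytic β genes the values ran from 0.14 for Psmb2 to −0.19 for Psmb3, and these became −0.43 and −0.77 after rescaling (adjusted p = 0.0249 and 0.00267). Under quantile normalization Psmb2 was at 0.40 (adjusted p = 0.0104) and Psmb3 at 0.08 (adjusted p = 0.66). Psmb3 was listed at 115 to 213 FPKM in control, 109 to 157 in CKD and 128 to 138 in CKD+Fe mice.

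In the regulatory cap, 1 of the 6 ATPase genes and 3 of the 11 other subunit genes were lower in CKD, and 1 of the latter was higher, against 13.3% of all genes lower and 54.6% higher. After rescaling, all 6 and 10 of the 11 were lower, against 29.3% of all genes, and none was higher. Psmc2, the ATPase Rpt1, was listed at 83.3, 82.3, 93.1 and 73.8 FPKM in control, 55.2, 63.1, 76.6 and 53.8 in CKD and 73.6, 63.6, 63.2 and 64.7 in CKD+Fe mice. CKD mouse 3 alone overlapped the control range. The value for CKD against control was −0.42 on the log2 scale (SE 0.13, limma adjusted p = 0.0116) and −0.99 after rescaling. Psmc1, the ATPase Rpt2, showed a log2 fold change of 0.01 (SE 0.13, limma adjusted p = 0.945), with 69.9 to 91.2 FPKM in control, 75.5 to 102 in CKD and 76.7 to 91.7 in CKD+Fe mice, and −0.56 after rescaling (adjusted p = 0.0048). Psmd12, the lid subunit Rpn5, fell from 58.3, 58.8, 53.1 and 47.0 FPKM in control to 44.4, 37.7, 41.03 and 38.8 in CKD mice. None of the CKD mice reached the lowest control mouse, and the log2 fold change was −0.41 (SE 0.11, limma adjusted p = 0.00495), and −0.98 after rescaling. The other lid subunits that were lower were Psmd11 (Rpn6) at −0.27 and Psmd14 (Rpn11, which removes ubiquitin chains from substrates) at −0.26 (limma adjusted p = 0.0433 and 0.0411), and at −0.84 and −0.83 after rescaling.

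The constitutive genes that were higher as deposited were Psmd8 and Psmd10. Psmd8, the lid subunit Rpn12, was listed at 124, 127, 110 and 101 FPKM in control, 118, 160, 173 and 144 in CKD and 161, 145, 131 and 160 in CKD+Fe mice. CKD mouse 1 lay within the control range. Its log2 fold change in CKD was 0.36 (SE 0.14, limma adjusted p = 0.0369), a call kept in 7 of the 12 fits that left out 1 mouse and lost without the 3 mice that stood apart (0.26, adjusted p = 0.119). Over all 23 alternatives to the main fit, the call of Psmd8 was kept in 13, with a limma adjusted p of at most 0.672. Psmd10 encodes gankyrin, a chaperone that helps assemble the base of the cap. It was listed at 21.8, 23.2, 18.2 and 23.8 FPKM in control, 26.5, 33.4, 31.6 and 27.9 in CKD and 28.0, 26.9, 27.6 and 26.9 in CKD+Fe mice. All mice on adenine were above all control mice, with a log2 fold change in CKD of 0.44 (SE 0.12, limma adjusted p = 0.00518). This call was lost under quantile normalization (0.13, adjusted p = 0.387) and with an adjustment for length and GC content (0.25, adjusted p = 0.114). Both values lay below the median of all genes, and after rescaling they were −0.22 and −0.12 and did not pass the test.

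Among the assembly chaperones of the core, Psmg1 (PAC1) was lower in CKD and the other 3 genes did not pass the test. Psmg1 was listed at 33.2, 33.8, 39.5 and 30.3 FPKM in control, 24.3, 21.9, 25.8 and 21.8 in CKD and 26.9, 28.1, 26.1 and 24.5 in CKD+Fe mice. Its groups on adenine were below every control mouse, with a log2 fold change in CKD of −0.52 (SE 0.12, limma adjusted p = 0.00129) and −1.08 after rescaling. Psmg4 (PAC4) was listed at 40.8, 47.5 and 44.5 FPKM in control mouse 3, CKD mouse 3 and CKD+Fe mouse 1, and at 20.6 to 28.7 in the other 9 mice. For Psmg4 this gave a log2 fold change in CKD of 0.28 (SE 0.25, limma adjusted p = 0.324), and −0.27 after rescaling (adjusted p = 0.357). Without these 3 mice it was 0.31 (adjusted p = 0.0117). Psmd5, a chaperone of the cap, showed a log2 fold change of −0.08 (SE 0.14, limma adjusted p = 0.622), with 20.3 to 32.2 FPKM in control and 21.7 to 26.8 in CKD mice. Psmf1, which encodes the regulator PI31, showed −0.03 (SE 0.13, limma adjusted p = 0.858), with 19.3 to 25.1 FPKM in control and 19.3 to 23.6 in CKD mice. After rescaling, Psmd5 was at −0.64 (adjusted p = 0.00257) and Psmf1 at −0.58 (adjusted p = 0.00129), and both passed the test.

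**Figure D3:**
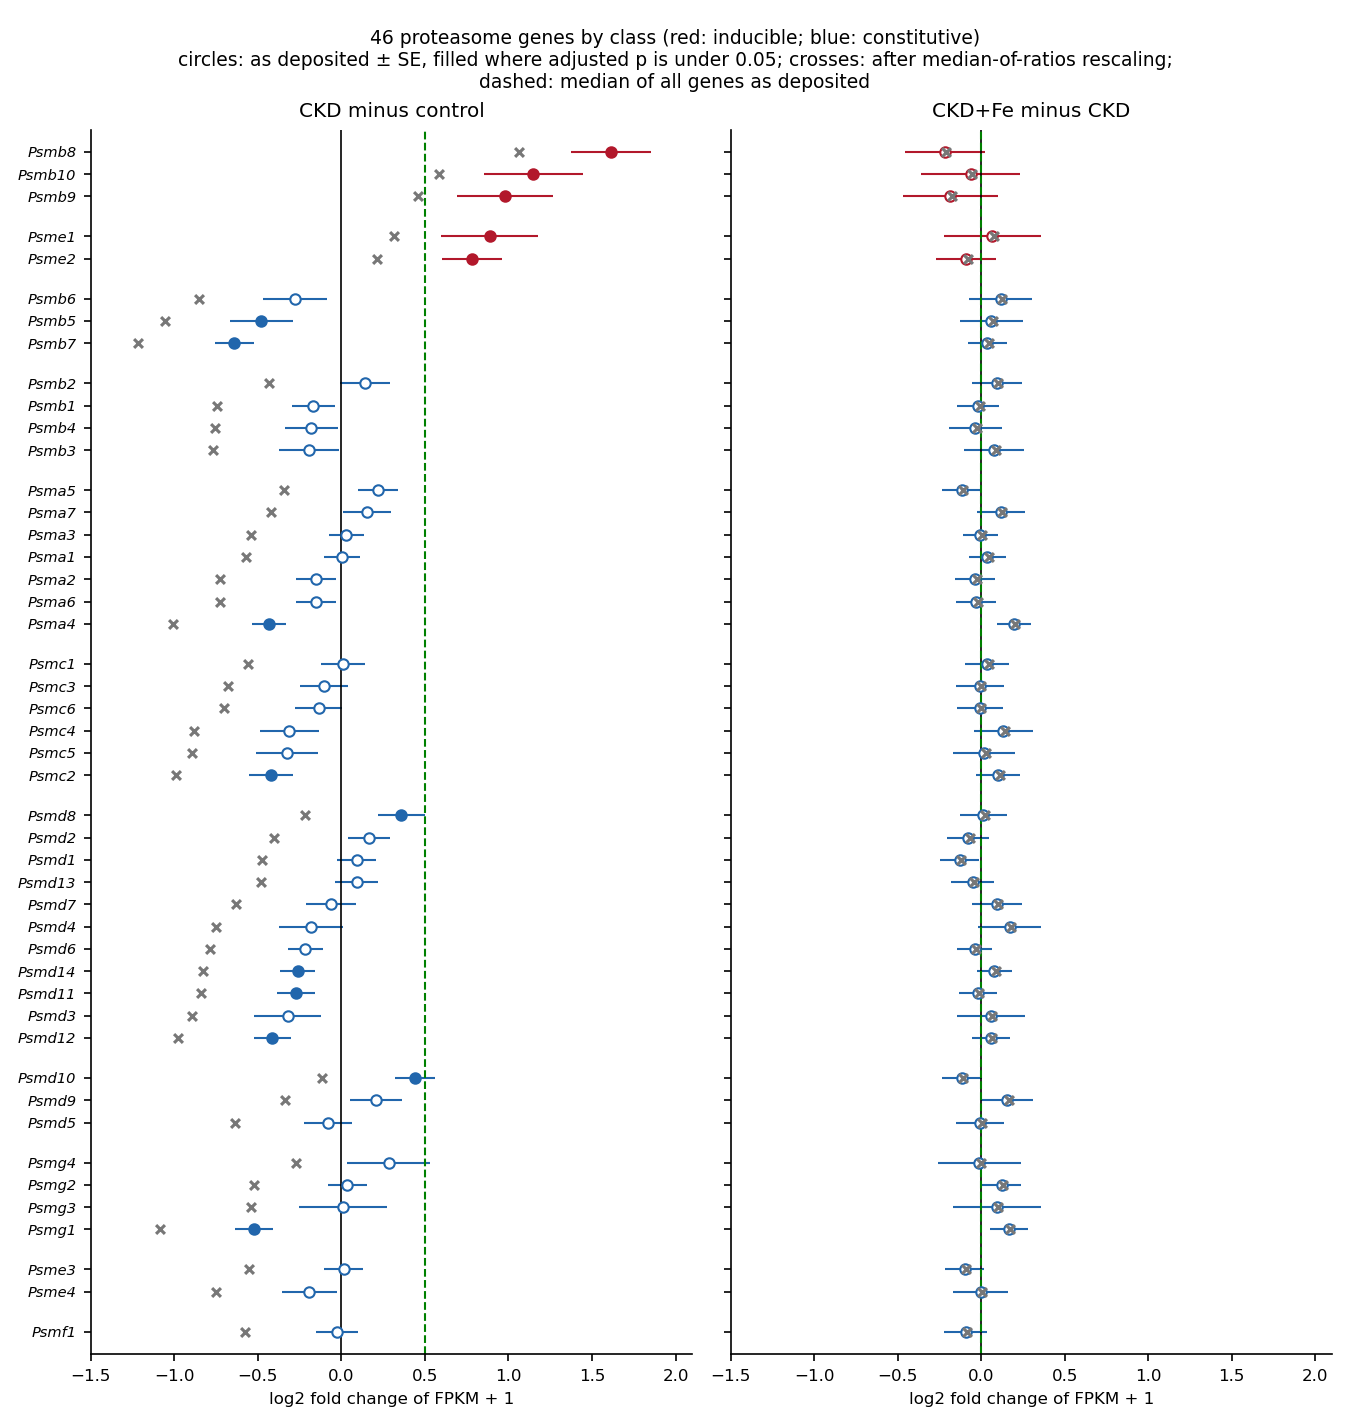
Log2 fold change of FPKM + 1 of the 46 members, grouped by class, for CKD minus control (left) and CKD+Fe minus CKD (right). Circles with SE bars are as deposited and filled where the adjusted p is under 0.05, crosses are after median-of-ratios rescaling, and the dashed line is the median of all genes. On the left the 5 inducible genes lie between 0.78 and 1.61 and all constitutive genes between −0.64 and 0.44, and on the right all 46 lie between −0.22 and 0.20.

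The comparison of CKD+Fe with CKD asked what iron dextran changed. No member passed the test in either direction by limma, against 0.00761% of all genes higher and 0.00% lower. Before adjustment, 0 of the 46 had a p under 0.05 with a higher and 0 with a lower value, against 3.28% and 2.73% of all genes. Log2 fold changes ran from −0.22 for Psmb8 to 0.20 for Psma4, with 23 of 46 above 0. For the inducible genes they were −0.22 (SE 0.24) for Psmb8, −0.18 (SE 0.29) for Psmb9, −0.06 (SE 0.30) for Psmb10, 0.07 (SE 0.29) for Psme1 and −0.09 (SE 0.18) for Psme2. None of these values was larger than its SE, and an effect of iron of that size was not detectable with 4 mice a group. Psma4 had the lowest unadjusted p of the members (0.078, limma adjusted p = 0.874), although no CKD+Fe mouse overlapped a CKD mouse.

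The pair shares were somewhat lower in CKD+Fe than in CKD and overlapped in all 3 pairs. The share of Psmb8 was 24.4 ± 5.02% in CKD+Fe, a difference from CKD of −3.76 points (exact two-sided permutation p = 0.4, adjusted 0.45, n = 4 each). With 1 mouse left out this difference ran from −6.16 points (without CKD+Fe mouse 1) to −1.25 points (without CKD mouse 2). The share of Psmb9 was 5.70 ± 1.10%, a difference of −1.24 points (exact permutation p = 0.171, adjusted 0.22, n = 4 each), and with 1 mouse left out it ran from −1.71 (without CKD mouse 4) to −0.719 (without CKD+Fe mouse 4). The share of Psmb10 was 32.6 ± 4.85%, a difference of −1.85 points (exact permutation p = 0.8286 before and after adjustment, n = 4 each), and it turned to 1.10 and 0.604 points above without CKD mouse 2 and CKD mouse 3. The difference was smaller than the SD within CKD mice for Psmb8 and Psmb10 and slightly larger for Psmb9, and none passed the test.

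Against control, CKD+Fe mice showed 7 members higher, against 54.4% of all genes, and 6 lower, against 11.0% (limma). The 5 inducible genes, Psmd10 and Psmd8 were the 7, with log2 fold changes of 1.40 for Psmb8, 1.09 for Psmb10, 0.95 for Psme1, 0.80 for Psmb9 and 0.69 for Psme2. After rescaling, 1 was higher, against 27.7%, and 34 lower, against 27.5%. The 1 was Psmb8, at 0.85 (limma adjusted p = 0.00714). The other inducible genes did not pass the test then. They were at 0.53 for Psmb10, 0.39 for Psme1, 0.28 for Psmb9 and 0.13 for Psme2 (limma adjusted p = 0.141, 0.26, 0.421 and 0.55). The shares of Psmb8, Psmb9 and Psmb10 were 16.3, 2.77 and 19.7 points above control (exact permutation p = 0.0286 and adjusted 0.0429 for each, n = 4 each). This comparison uses the same control mice as the first, so it is not a second test of the adenine diet.

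Genes of the same peptide pathway were also counted. Of 12 antigen processing genes, 9 were higher in CKD and none lower as deposited, against 54.6% and 13.3% of all genes, and 7 were higher and 2 lower after rescaling, against 28.8% and 29.3%. Their median log2 fold change was 1.13, against 0.50 over all genes. Tap1, which carries peptides into the endoplasmic reticulum, had the largest value of the list. It rose from 5.43 ± 1.63 FPKM in control to 17.0 ± 4.55 in CKD and was at 14.9 ± 3.68 with iron (SD, n = 4). Its value for CKD against control was 1.49 on the log2 scale (limma adjusted p = 8.69e-05). The chaperone Calr had the smallest at −0.37 (limma adjusted p = 0.0577), and −0.94 after rescaling (adjusted p = 0.000296). Tap1 lies head to head with Psmb9 and shares bases with it, so their values may not be independent. Of 10 interferon regulators and targets tested, 8 were higher in CKD and none lower as deposited, and 7 were higher and none lower after rescaling, against the same shares of all genes. The values ran from 1.99 for the receptor chain Ifngr1 (limma adjusted p = 4.61e-07) to 0.11 for the chemokine Cxcl9 (limma adjusted p = 0.775). Ifng itself did not pass the filter on low values. None of the genes of these lists passed the test in CKD+Fe against CKD.

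Of 19 genes that work with the proteasome, 8 were higher and 1 lower in CKD as deposited, against 54.6% and 13.3% of all genes, and 1 was higher and 10 lower after rescaling, against 28.8% and 29.3%. Their median log2 fold change as deposited was 0.15, against 0.50 over all genes. Nfe2l2, which encodes Nrf2, was the 1 higher on both scales. It rose from 38.7 ± 3.48 FPKM in control to 84.2 ± 10.8 in CKD and was at 92.5 ± 14.1 with iron (SD, n = 4). The log2 fold change in CKD was 1.10 as deposited (limma adjusted p = 1.38e-05) and 0.53 after rescaling (adjusted p = 0.00371). Nfe2l1 encodes Nrf1, which drives proteasome genes when the proteasome is impaired. Its log2 fold change in CKD was 0.79 (limma adjusted p = 0.00107) as deposited and 0.22 (adjusted p = 0.22) after rescaling, with the failed values of CKD mice 2 and 3 left out of the fit. Ddi2, the protease that activates Nrf1, showed 0.58 as deposited (limma adjusted p = 0.00706) and 0.04 after rescaling. The others that were higher as deposited were Zfand5, Zfand2a, Ubqln4, AI314180 and Usp14, at 0.49 to 0.74. Txnl1, a thioredoxin-like protein bound to the cap, was the 1 that was lower, from 44.1 ± 0.575 FPKM in control to 34.7 ± 2.09 in CKD (SD, n = 4), with a log2 fold change of −0.34 (limma adjusted p = 0.00837), and −0.90 after rescaling. Pomp, the chaperone that completes new cores, showed −0.11 (limma adjusted p = 0.51), and the ubiquitin receptor Adrm1 −0.47 (limma adjusted p = 0.0915). After rescaling Pomp was at −0.68 (adjusted p = 0.00172) and Adrm1 at −1.03 (adjusted p = 0.00232), and both passed the test.

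**Figure D4:**
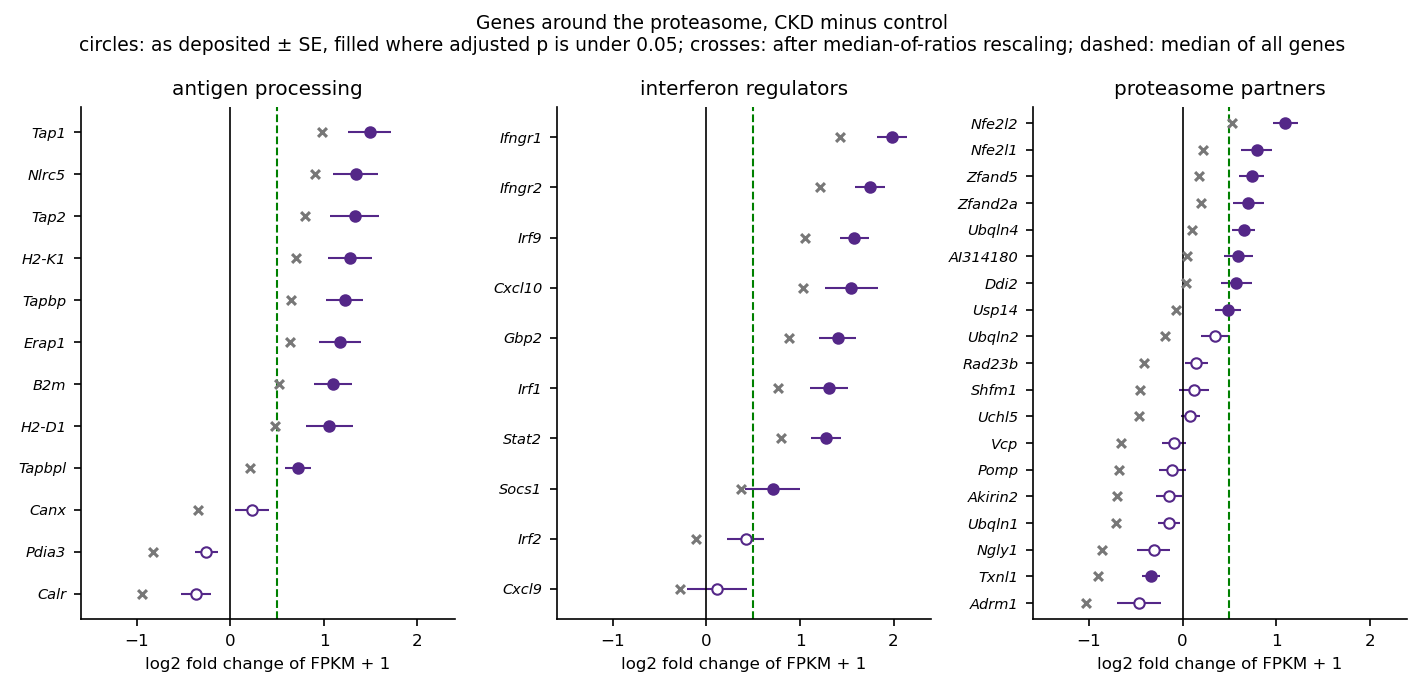
Log2 fold change of FPKM + 1 in CKD minus control for the tested genes of 3 lists, with circles and SE bars as deposited (filled where the adjusted p is under 0.05), crosses after median-of-ratios rescaling and the median of all genes as a dashed line. Tap1 (1.49) leads antigen processing, Ifngr1 (1.99) the interferon regulators and Nfe2l2 (1.10) the proteasome partners.

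Markers of leukocytes and of kidney cells were counted too, and of these lists only the leukocyte markers were mostly higher in CKD. Of 10 leukocyte markers tested, 9 were higher in CKD and none lower as deposited, against 54.6% and 13.3% of all genes. After rescaling 8 were higher and none lower, against 28.8% and 29.3%. Their median log2 fold change as deposited was 2.71, led by the macrophage gene Lyz2, and Cd79a of B cells did not pass the filter. All 10 proximal tubule markers were lower on both scales (median −1.85 as deposited), against 13.3% of all genes as deposited and 29.3% after rescaling. Of 7 markers of other kidney cells 1 was lower as deposited and 2 after rescaling, and none was higher. Of 4 markers of urothelium and papilla 1 (Krt20) was higher on both scales and none was lower, against the same shares of all genes. None of these passed the test in CKD+Fe against CKD.

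The tested genes outside the members whose log2(FPKM + 1) most resembled that of Psmb8, Psmb9 and Psmb10 over the 12 mice were H2-DMa, H2-Ab1, Ifi35, Rhog and Ift140, with a mean Pearson r of 0.954, 0.954, 0.949, 0.949 and 0.946. H2-DMa and H2-Ab1 belong to MHC class II. H2-Ab1 was listed at 102 to 201 FPKM in control, 259 to 994 in CKD and 304 to 505 in CKD+Fe mice, and CKD mouse 3 was the highest. The mice share the group difference and the 3 mice that stood apart, so these r values are a description.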

How the data were processed

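RNA of whole kidneys of 12 mice was sequenced by the authors from stranded mRNA libraries with single-end reads of 50 cycles on a HiSeq4000. Per the submitters' processing notes, bcl2fastq 2.19, STAR 2.5.2, Cufflinks 2.1.1 and GRCm38 were used. The authors deposited FPKM, 1 value per gene and mouse, for 22053 rows. The status column marked 30 values in 17 genes as failed, none in a member, and these were treated as missing. The authors tested counts with DESeq2. Counts were not used here, and without the depth in reads no counting error could be given.

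A linear model was fitted to log2(FPKM + 1) with limma 3.58.1 under R 4.3.3, using eBayes with its variance trend. It covered all 12 mice without covariates and the 13148 genes that reached 1 FPKM in 4 or more mice. The pseudocount understates changes of low genes. Two-sided p-values were corrected across all genes tested (Benjamini-Hochberg) and read at 0.05. Pair shares were compared by exact permutation over 70 arrangements (SciPy 1.17.1), adjusted over 9 comparisons. The limma fit was checked on simulated data, and the permutation test on small sets of made-up values. Median-of-ratios size factors were computed from the genes above 0 in every mouse. Positions are on GRCm38, and 77.1% of 21810 gene identifiers matched to GENCODE M21 have the same start and end there.

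The labels give 1 library per mouse and name no batch or litter. Named were the inducible genes, their counterparts, the members with the largest and smallest change in each class, the extremes of each list and the partners. The members and lists were chosen with earlier results of these data known. Alternatives were other pseudocounts, filters, scalings, fits and thresholds, each mouse left out, and, chosen after seeing the data, leaving out the 3 mice that stood apart and an adjustment for length and GC content. In the lists, Sem1, Paaf1, Ecpas and Irf8 were not matched by symbol, Sem1 and Ecpas being listed as Shfm1 and AI314180. Some genes of the lists and a response element were left out and are not reported here.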

Additional observations from a re-analysis of the deposited data

Results flagged for a closer look

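In 9 of 78 groups of 4 mice examined, 1 mouse lay far from the other mice of its group, with a gap to the nearest above Dixon's critical value for 4 values. Chance alone flags about 1 in 20 groups. All 9 were the highest mouse and were control mouse 3, CKD mouse 3 or CKD+Fe mouse 1, the mice that stood apart over all genes. Psme2 was at 73.5 FPKM in control mouse 3 and at 45.9 to 47.8 in the other control mice. Psmb5 was at 170.9 FPKM in CKD mouse 3 and at 103.4 to 109.9 in the others. Psmc1 was at 101.7 FPKM in CKD mouse 3 and at 75.5 to 77.8 in the others. Psmc2 was at 73.6 FPKM in CKD+Fe mouse 1 and at 63.2 to 64.7 in the others. Psmg4 was far from its group in all 3 of these mice, at 40.8 FPKM in control mouse 3 (others 20.6 to 22.6), 47.5 in CKD mouse 3 (others 25.9 to 28.7) and 44.5 in CKD+Fe mouse 1 (others 26.1 to 27.9). Psmf1 was at 25.1 FPKM in control mouse 3 (others 19.3 to 20.03) and at 23.6 in CKD mouse 3 (others 19.3 to 19.8). Over all genes, the deviation of these mice from their group correlated with transcript length at a Spearman rho of −0.347 (control mouse 3), −0.461 (CKD mouse 3) and −0.0969 (CKD+Fe mouse 1). In the other 9 mice it ran from −0.231 (CKD+Fe mouse 2) to 0.484 (CKD mouse 4). Control mouse 3 and CKD mouse 3 thus had the most negative values, while CKD+Fe mouse 1 lay within the range of the other mice. Each deviation is taken from the other mice of the group, so the values within a group are not independent. The part of this in the values above was not tested.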

How the results depend on the processing

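The count of members higher in CKD than in control was 7 and became 1 after median-of-ratios rescaling, 14 at an adjusted p under 0.5, and 4 with the length and GC adjustment. The count lower was 8 and became 36 after rescaling, 5 with only the 2 groups in the fit, 17 with array quality weights, 21 at the threshold of 0.5, 14 without the 3 mice that stood apart, 26 with the length and GC adjustment, and 5 to 12 with 1 mouse left out. It was 5 without control mouse 1, CKD mouse 1 or CKD mouse 4, and 12 without CKD mouse 3. For CKD+Fe against control, the count higher was 7 and became 1 after rescaling, 11 with array weights, 13 at 0.5, 4 with the length and GC adjustment, and 4 to 8 with 1 mouse left out (4 without CKD+Fe mouse 1). The count lower was 6 and became 34, 14, 21 and 28 under the same settings, and 3 to 8 with 1 mouse left out (3 without control mouse 1 or without CKD+Fe mouse 2, 3 or 4). Under quantile normalization 7 members were higher and 9 lower, both for CKD and for CKD+Fe against control. No member was called in CKD+Fe against CKD under any setting.

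Rescaling turned the sign of Psme3 (−0.55), Psmc1 (−0.56), Psmd10 (−0.12), Psmd8 (−0.22), Psma5 (−0.35), Psmb2 (−0.43) and Psmg4 (−0.27), and of 9 further constitutive genes, since 16 of the 41 were positive as deposited and none after it. The length and GC adjustment turned Psme3 (−0.36) and Psmc1 (−0.19), and quantile normalization turned Psme3 (−0.12), Psmb6 (0.15) and Psmb3 (0.08). Psmc1 and Psme3, near 0 as deposited, were also negative with array weights, without control mouse 3, without CKD mouse 3 and without the 3 mice that stood apart, and Psmf1 was positive without control mouse 3 (0.06). Leaving out CKD mouse 1 also turned Psme3 and Psmf1, to within 0.01 of 0. The construction of the rescaling, which divides CKD mice by larger factors than control mice, lowers every member in CKD. Among the members named, Psmb8, Psmb7, Psmc2, Psmd12 and Psmg1 passed the test of CKD against control in all 23 alternatives. Psmd8 passed it in 13 of them. Psmb9 lost its call under rescaling, quantile normalization and the length and GC adjustment, Psma4 under quantile normalization, Psmb5 under quantile normalization, without the filter and with only the 2 groups in the fit, and Psmd10 under the same 3 settings as Psmb9. The share differences of CKD from control were 17.6 to 21.5 points for Psmb8, 3.62 to 4.48 for Psmb9 and 18.6 to 24.4 for Psmb10 with 1 mouse left out. No paired analysis was possible because the groups share no replicate numbers in the labels. The depth in reads is unknown, so the limit it sets cannot be given.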
